A study of Homo sapiens with 2 samples.

Results

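Folate receptor alpha and 8 further genes of folate uptake, storage and one-carbon transfer were followed at gene and transcript level in a pool of ovarian cancer cells read with long reads. The 9 genes were FOLR1, SLC19A1, FPGS, GGH, SHMT1, SHMT2, MTHFD1, MTHFD2 and MTHFD1L, chosen by name out of 57110 gene entries in the transcript table. Each of the 9 had its own entry, joined to no other gene, and together they held 32 listed transcripts. All 9 passed the minimum of 50 counts over the compared cells.

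The pool held IGROV1, SK-OV-3 and COV504, established lines grown from ovarian tumours, mixed in equal parts and untreated as far as the labels say. One library of the pool was sequenced by nanopore on a PromethION, whose reads can span a cDNA from end to end, and every value here comes from it. The companion library from the Illumina platform contributed a barcode list only, and 2462 of its 2462 barcodes were also in the PromethION list. With 1 library there is no replicate and no test, and every interval is a 95% interval that covers counting error only.

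Cells take up folates through the reduced folate carrier SLC19A1, a transporter of wide distribution, and through folate receptor alpha, the product of FOLR1, a membrane-anchored protein that binds folic acid tightly and brings it in by endocytosis. Inside the cell, FPGS adds glutamate residues that retain folates, and GGH removes them. SHMT1 in the cytosol and SHMT2 in mitochondria move a carbon unit from serine to tetrahydrofolate, and MTHFD1 in the cytosol and MTHFD2 and MTHFD1L in mitochondria pass that unit on towards formate, purines and thymidylate. Folate receptor alpha is abundant in many ovarian carcinomas and is a target of antibody drugs there.

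Barcodes with at least 1000 counts were given to a line where 1 group of leading genes held at least 75% of the counts of all leading genes. ERBB2, NNMT, TSPAN1 and DHRS2 set the ERBB2-high line, with 648 cells. RARRES2 and TMEM100 set the RARRES2-high line, with 473 cells. FOLR1, CLDN3, DEFB1 and CXCL14 set the FOLR1-high line, with 765 cells, and 243 of the 2129 barcodes belonged to no line. Within the FOLR1-high line, 261 cells had a CXCL14 count (the CXCL14 state), 299 had none but had a DEFB1 or CD44 count (the DEFB1 or CD44 state), and 205 had none of the 3. FOLR1 itself set the last line, so its level there is a description and supports nothing.

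The lines are called by their leading genes because the markers of IGROV1 were divided. FOLR1 and CLDN3 are genes of the line rule, so their place in the FOLR1-high line says nothing of its identity. PAX8, which the rule does not use, stood at 143 CPM there against 101 and 95.03 CPM in the ERBB2-high and RARRES2-high lines, while CDH1 stood at 45.0 CPM (counts-per-million of a group's summed counts) and ESRP1 at 8.88 CPM in the RARRES2-high line against 2.44 and 0.886 CPM in the FOLR1-high line. The SK-OV-3 markers GRB7, MIEN1, STARD3 and PGAP3, which the rule does not use, were all highest in the ERBB2-high line. That line had 1 count of CDKN2A, a gene lost in SK-OV-3; the RARRES2-high line had 0 counts of it. Summed counts were 3442383, 3377992 and 4514999 for the ERBB2-high, RARRES2-high and FOLR1-high lines, at medians of 4953, 6262 and 5289 per cell. Ribosomal protein genes took 11.9%, 15.0% and 26.6% of those counts and mitochondrial genes 2.93%, 3.11% and 7.07%. The epithelial markers EPCAM, KRT8, KRT18 and KRT19 were present in each line, and of 9 leukocyte, endothelial and fibroblast markers only COL1A1 in the ERBB2-high line (95.6 CPM) and CD74 in the RARRES2-high line (34.6 CPM) stood above 30 CPM.

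FOLR1 lies on chromosome 11 (GRCh38, chr11:72189558-72196323, plus strand), and its 4 listed transcripts differ before the coding sequence. ENST00000393676 begins at 72192076, 98 bases before the start codon, and has 4 exons; it is called the downstream start here. ENST00000312293, with 5 exons, begins 2518 bases further up, at 72189558, and ENST00000393681, with 6 exons, begins at 72189668 and keeps an additional untranslated exon of 66 bases; these are the upstream starts. ENST00000393679 has a middle start at 72190214. All 4 share the same start codon at 72192174 and the same 771 coding bases, so a change of start does not change the annotated protein.

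**Figure D1:**
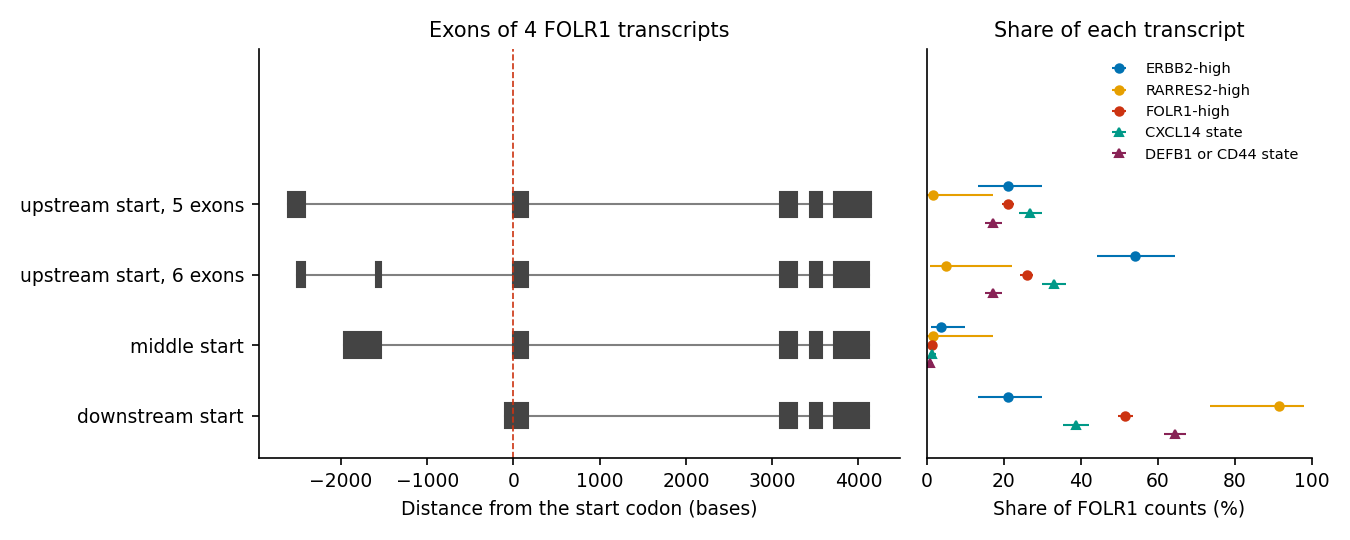
Left, exons (boxes) of the 4 FOLR1 transcripts by distance from the shared start codon in bases (dashed line). Right, the share of FOLR1 counts held by each transcript in 3 lines (circles) and 2 states (triangles) with 95% Clopper-Pearson intervals; the downstream start holds 21.1% in the ERBB2-high line, 51.6% in the FOLR1-high line and 91.5% of only 30 counts in the RARRES2-high line.

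FOLR1 was detected in all 3 lines at very different levels. Its level was 594 CPM (572 to 617, 2683 counts) in the FOLR1-high line, 29.3 CPM (23.9 to 35.7, 101 counts) in the ERBB2-high line and 8.88 CPM (5.99 to 12.7, 30 counts) in the RARRES2-high line. No 2 of these intervals overlap, and the line rule itself favours a high level in the FOLR1-high line and a low one in the others. With FOLR1 taken out of the marker genes, the log2 ratio of CPM + 10 between the FOLR1-high and ERBB2-high lines was 3.44 in place of 3.94.

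Single cells of the FOLR1-high line varied widely in FOLR1. Counts per cell ran from 0 to 41 with a median of 2, and the median cell stood at 452 CPM. After every cell was thinned to 2000 counts, 64.5% of its cells (60.9 to 68.0%) had a FOLR1 count, against 6.27% (4.48 to 8.51%) in the ERBB2-high line and 0.903% (0.247 to 2.30%) in the RARRES2-high line. Thinning left out 32, 42 and 30 shallower cells of the FOLR1-high, ERBB2-high and RARRES2-high lines. Without thinning the shares were 85.4%, 12.7% and 3.59%, so the low shares move with depth while their order is the same. No cell of the ERBB2-high line held more than 3 FOLR1 counts, and 1 cell of the RARRES2-high line held 6.

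The 2 low lines differed in what accompanied FOLR1. Per 100 FOLR1 counts the FOLR1-high line had 102 CXCL14, 24.4 DEFB1 and 61.9 CLDN3 counts. The ERBB2-high line had 79.2 CLDN3 and 2.97 DEFB1 counts per 100 FOLR1 counts and 0 CXCL14 counts, which allows up to 2.97 per 100. The RARRES2-high line had 63.3 CXCL14, 6.67 DEFB1 and 887 CLDN3 counts per 100, on 30 FOLR1 counts in 17 of 473 cells. The line rule uses these genes and limits all of them in the other lines, and the part of free RNA or mixed droplets in the low levels was not tested.

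The lines also differed in where FOLR1 transcripts began. In the FOLR1-high line the downstream start held 51.6% of FOLR1 counts (49.7 to 53.5%), the upstream starts 47.1% (45.2 to 49.0%) and the middle start 1.32%. In the ERBB2-high line the upstream starts held 75.2% (65.7 to 83.3%) and the downstream start 21.1% (13.4 to 30.0%). In the RARRES2-high line the downstream start held 91.5% (73.5 to 97.9%) of its 30 counts, below the minimum of 50 counts for a comparison. The line rule used gene sums and no transcript. It still sets which cells with FOLR1 counts can enter each line, so these shares are not independent of it.

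Between the FOLR1-high and ERBB2-high lines the downstream share differed by 30.5 percentage points. Of the 6 member genes with at least 50 counts in each of these lines and more than 1 transcript, 2 differed by at least 20 points in 1 transcript, FOLR1 and SHMT1, where 2.21% of 4477 genes did so. The median of the largest share difference was 4.56 points over those 6 members and 3.17 points over all genes compared. The ERBB2-high value rests on 101 counts in 82 cells; once cells with a single count of the gene are left out, too few FOLR1 counts remain there to compare. The share of upstream transcripts that keep the 66-base exon was 71.97% (60.9 to 82.0%) in the ERBB2-high line and 55.1% (52.4 to 57.9%) in the FOLR1-high line.

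The choice of FOLR1 start also differed between the 2 states of the FOLR1-high line, at nearly equal summed gene level. FOLR1 stood at 597 CPM (558 to 638) in the CXCL14 state and at 577 CPM (544 to 612) in the DEFB1 or CD44 state, and the intervals overlap. By single cells the states were less alike: thinned to 2000 counts, 71.9% of cells (65.9 to 77.4%) had a FOLR1 count in the CXCL14 state and 58.2% (52.3 to 63.9%) in the other, and the median cell stood at 508 and 406 CPM. The downstream start held 38.8% of FOLR1 counts (35.4 to 42.0%, 858 counts) in the CXCL14 state and 64.6% (61.7 to 67.4%, 1135 counts) in the DEFB1 or CD44 state. The 25.8-point difference passed the 20-point limit, which 0.597% of 2347 genes passed between these states; FOLR1 was the 1 member of 4 compared that did. FOLR1 is among the genes that define the line but not among those that divide it into states. CXCL14 and DEFB1 are also genes of the line rule, while CD44 is not. Cells with CD44 alone therefore needed a FOLR1 or CLDN3 count to enter the line. The rule thus acts unequally on the states, and their FOLR1 levels and cell shares are descriptions.

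By level, the 2 kinds of transcript differed in opposite directions between the states. Downstream-start FOLR1 stood at 231 CPM (207 to 258) in the CXCL14 state and 373 CPM (346 to 401) in the DEFB1 or CD44 state. Upstream-start FOLR1 stood at 358 CPM (327 to 390) and 199 CPM (180 to 220). Neither pair of intervals overlaps. Among upstream transcripts the 66-base exon was kept in 55.0% (50.6 to 59.4%) and 49.96% (44.8 to 54.9%), intervals that overlap.

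**Figure D2:**
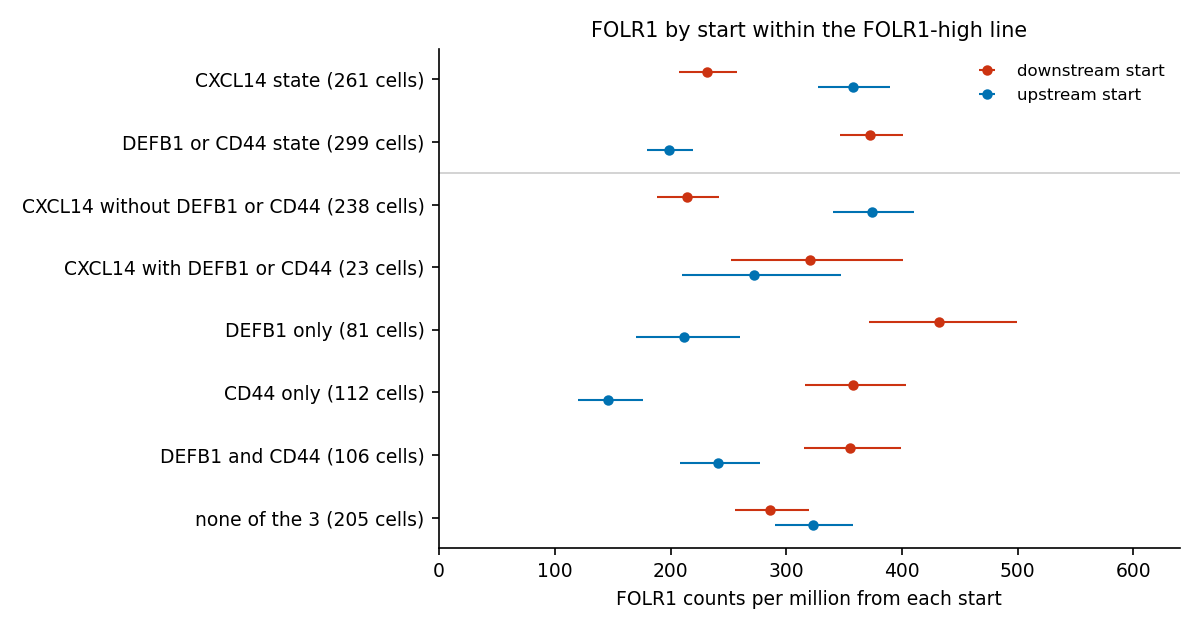
FOLR1 CPM from the downstream start and from the 2 upstream starts, with 95% Poisson intervals, in the 2 states (top) and in 6 subsets of the FOLR1-high line by CXCL14, DEFB1 and CD44 (below the line). Upstream starts lead in the CXCL14 state (358 against 231 CPM) and downstream starts in the DEFB1 or CD44 state (373 against 199 CPM).

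A finer division of the FOLR1-high line, made after these values were seen, gave 6 subsets, listed here by their downstream share. The downstream share was 35.8% (32.3 to 39.4%) in 238 cells with CXCL14 and neither DEFB1 nor CD44. It was 46.1% (42.3 to 49.9%) in the 205 cells with none of the 3 genes and 54.0% (45.7 to 62.7%) in 23 cells with CXCL14 and DEFB1 or CD44. Cells with DEFB1 and CD44 had 59.4% (54.8 to 63.8%), cells with DEFB1 alone 65.6% (59.7 to 71.2%) and cells with CD44 alone 70.4% (65.6 to 75.05%). Neighbours in this order overlap except the first pair; the subsets with DEFB1 or CD44 and no CXCL14 all lie above the cells with CXCL14 alone. The median depth was 4972 counts per cell in the CXCL14 state and 6040 in the other, and when states were set after thinning to 2000 counts the shares were 36.8% and 63.9%. The epithelial marker EPCAM stood at 16.7 and 174 CPM and KRT8 at 78.6 and 332 CPM in the CXCL14 and the DEFB1 or CD44 state; their part in the FOLR1 difference was not tested.

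Single cells with many FOLR1 counts mostly held more than 1 start. Of the 177 of 765 cells of the FOLR1-high line with at least 5 FOLR1 counts assigned whole to 1 transcript, 156 (88.1%, 82.4 to 92.5%) held downstream and other starts, 12 held downstream starts alone and 9 held none. A single count was enough for a start to be held, and the part of free RNA in this was not tested. The median downstream share per cell was 50.1%, with quartiles of 33.3% and 71.4%. It was 40.0% over 50 cells of the CXCL14 state and 66.6% over 82 cells of the DEFB1 or CD44 state. Of the FOLR1 counts in the FOLR1-high line 98.6% were assigned whole, so few reads were split between transcripts. The first exon of the downstream start runs over the exon that the other 3 transcripts share, from base -8 to base 167 around the start codon. Not given in the sources used here is how the authors assigned reads that stop short of the first exon, and that choice could alter every downstream share printed.

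SLC19A1 (chromosome 21), the reduced folate carrier, was low in every line. It stood at 10.5 CPM (7.32 to 14.5, 36 counts) in the ERBB2-high line, 7.10 CPM (4.55 to 10.6, 24 counts) in the RARRES2-high line and 4.65 CPM (2.88 to 7.11, 21 counts) in the FOLR1-high line. The line with the most FOLR1 had the lowest SLC19A1 level. The intervals of the ERBB2-high and FOLR1-high lines were just apart and the RARRES2-high interval overlapped each of them. Scaling without mitochondrial and ribosomal protein genes or by median of ratios raises the FOLR1-high line against the ERBB2-high line. The shift is 0.36 and 0.38 in log2 before 10 CPM is added, which is more than that gap. Of the other folate transporters, SLC46A1, the proton-coupled carrier, had 7, 3 and 4 counts in the ERBB2-high, RARRES2-high and FOLR1-high lines, and the receptor FOLR2 had 0 counts, which allows up to 0.871, 0.888 and 0.664 CPM. A SLC19A1 transcript with another last exon, ENST00000380010, held 6 of 24 counts in the RARRES2-high line, 2.50 of 36 in the ERBB2-high line and 0 of 21 in the FOLR1-high line, which allows a share of up to 14.3% there.

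**Figure D3:**
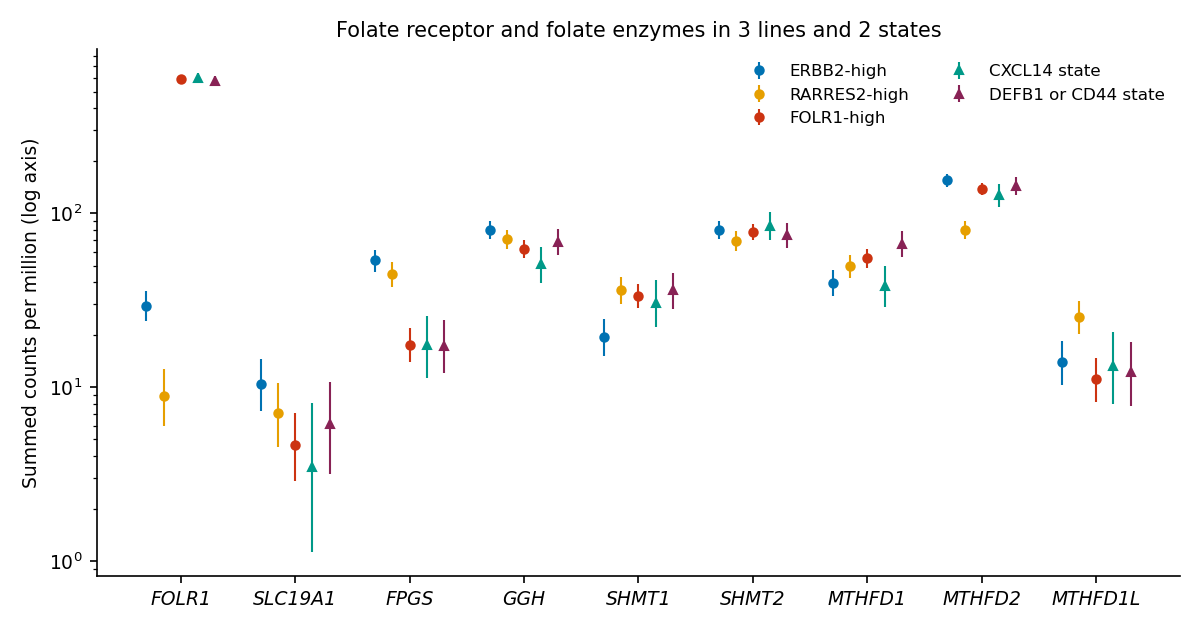
CPM of summed counts (log axis) of the 9 genes in 3 lines (circles) and 2 states of the FOLR1-high line (triangles), with 95% Poisson intervals. FOLR1, which is among the genes of the line rule, spans 8.88 to 594 CPM over the lines; FPGS is lowest in the FOLR1-high line at 17.5 CPM.

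FPGS (chromosome 9), which traps folates and antifolates in the cell by polyglutamation, was lowest in the FOLR1-high line. Its level was 53.5 CPM (46.0 to 61.8, 184 counts) in the ERBB2-high line, 44.4 CPM (37.6 to 52.1, 150 counts) in the RARRES2-high line and 17.5 CPM (13.9 to 21.8, 79 counts) in the FOLR1-high line. The first 2 overlap and the last lies below them. In the states it stood at 17.4 and 17.3 CPM. The level in the ERBB2-high line was 3.05-fold that of the FOLR1-high line.

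A member counted as past the limit where the ratio of CPM + 10 was at least 2-fold. Apart from FOLR1, FPGS was the only member past it in any pair of lines, between the FOLR1-high and ERBB2-high lines, at a log2 ratio of -1.21; 17.7% of 10202 gene entries passed the limit in that pair. Against the RARRES2-high line FPGS stood just inside the limit at -0.98, and none of the 8 genes passed there or between the RARRES2-high and ERBB2-high lines, where 19% and 17.8% of entries did. The members other than FOLR1 passed no more often than other genes. Scaling by median of ratios put the FPGS log2 ratio at -0.93, inside the limit.

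Scaling bears on every small difference, since the median log2 ratio of all entries was -0.29 between the FOLR1-high and ERBB2-high lines and -0.12 between the FOLR1-high and RARRES2-high lines. Scaling without mitochondrial and ribosomal protein genes moved those medians by 0.22 and 0.20, and median of ratios moved them by 0.24 and 0.15. FPGS kept its direction under each. GGH, SHMT2, MTHFD2 and MTHFD1L changed direction between the FOLR1-high and ERBB2-high lines under at least 1 of these scalings, as did GGH and SHMT1 between the FOLR1-high and RARRES2-high lines, so no direction is given for those pairs.

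GGH, the gamma-glutamyl hydrolase that undoes the work of FPGS, varied less. It stood at 80.5 CPM (71.3 to 90.5) in the ERBB2-high line, 70.8 CPM (62.1 to 80.3) in the RARRES2-high line and 62.5 CPM (55.4 to 70.2) in the FOLR1-high line. Neighbours in this order overlap. It has 1 listed transcript, so no share could be compared. Most FPGS reads, by contrast, could not be told apart among its 5 transcripts: 5.97%, 9.25% and 7.59% of its counts in the ERBB2-high, RARRES2-high and FOLR1-high lines were assigned whole, and no order of its transcripts is given.

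SHMT1, the cytosolic serine hydroxymethyltransferase, lies on chromosome 17 (chr17:18327860-18363563 over its longer transcripts, minus strand). One of its transcripts, ENST00000354098, leaves out a coding exon of 117 bases (chr17:18335559-18335675), which is 39 codons with no shift of frame. The exon and the junction that leaves it out are shown because their use differed between lines. They are written 5′ to 3′ on the minus strand from GENCODE release 29; capitals mark the whole left-out exon in the first and the exon before the junction in the second.
SHMT1 skipped exon: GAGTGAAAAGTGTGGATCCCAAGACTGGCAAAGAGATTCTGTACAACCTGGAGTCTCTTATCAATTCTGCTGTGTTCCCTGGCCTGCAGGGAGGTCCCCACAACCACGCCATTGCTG
SHMT1 junction without the exon: TCTTCTACAGGAAAGgggttgctgtggcac

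The form without this exon held 27.1% of SHMT1 counts (20.2 to 35.0%, 40.9 of 151 counts) in the FOLR1-high line. It held 6.47% (1.65 to 14.6%, 4.33 of 67 counts) in the ERBB2-high line and 9.19% (4.59 to 15.6%, 11.2 of 122 counts) in the RARRES2-high line. The interval of the FOLR1-high line lies above the other two. The difference was 20.6 points from the ERBB2-high line, just past the limit of 20, and 17.9 points from the RARRES2-high line, just inside it. With at least 3 marker counts per cell the first difference was 19.98 points, inside the limit. Against the RARRES2-high line 3.25% of 4120 genes passed, and none of 6 members did. Between the RARRES2-high and ERBB2-high lines none of 5 members passed, against 2.45% of 4245 genes.

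Counting only reads assigned whole to 1 transcript, the form without the 117-base exon had 28 of 69 counts in the FOLR1-high line (28.9 to 53.1%), 4 of 57 in the RARRES2-high line (1.95 to 17.0%) and 1 of 16 in the ERBB2-high line (0.158 to 30.2%). On these counts the intervals of the FOLR1-high and ERBB2-high lines overlap, and those of the FOLR1-high and RARRES2-high lines do not. Whole assignments made up 45.6%, 46.6% and 23.9% of SHMT1 counts there. In the states its share was 29.1% and 29.4%. Another SHMT1 transcript, ENST00000352886, lacks an exon of 116 bases and starts its annotated coding sequence further on; it held 40.1%, 31.4% and 28.4% in the ERBB2-high, RARRES2-high and FOLR1-high lines, with overlapping intervals. The SHMT1 gene level was 19.5 CPM (15.1 to 24.7) in the ERBB2-high line, below 36.1 CPM (30.0 to 43.1) in the RARRES2-high line and 33.4 CPM (28.3 to 39.2) in the FOLR1-high line, which overlap each other.

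**Figure D4:**
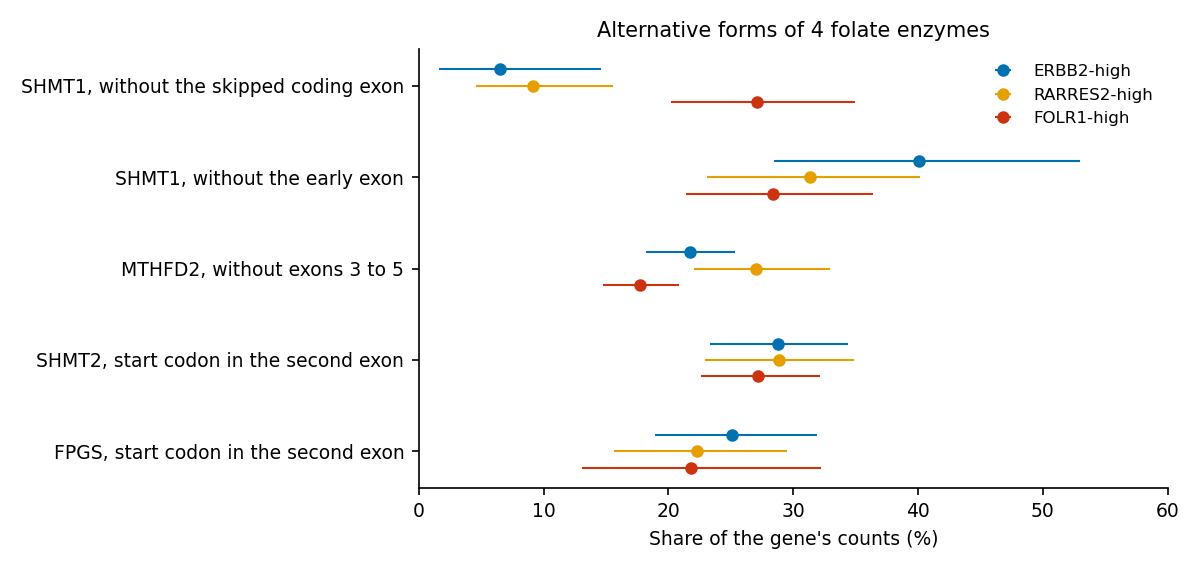
Share of the gene's counts (%) held by alternative forms of SHMT1 (without the skipped 117-base coding exon, without the early 116-base exon), MTHFD2, SHMT2 and FPGS in the 3 lines, with 95% Clopper-Pearson intervals. Most SHMT1, SHMT2 and FPGS counts were not assigned whole to 1 transcript, which the intervals do not cover. The SHMT1 form without the 117-base coding exon holds 27.1% in the FOLR1-high line against 6.47% and 9.19% in the ERBB2-high and RARRES2-high lines. The MTHFD2 intervals are apart between the RARRES2-high and FOLR1-high lines. The remaining forms overlap in every pair of lines.

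SHMT2 (chromosome 12), the mitochondrial enzyme, was nearly level across lines. It stood at 80.2 CPM (71.0 to 90.2) in the ERBB2-high line, 69.3 CPM (60.7 to 78.7) in the RARRES2-high line and 78.2 CPM (70.2 to 86.8) in the FOLR1-high line, with overlapping intervals. Its transcripts begin translation at either of a pair of start codons in frame with each other, at 57229779 in the first exon or at 57230833 in the second, and the protein from the second lacks the first 21 residues, part of the leader that directs the enzyme to mitochondria. The coding bases from the first to the second start codon (chr12:57229779-57230835, plus strand, spliced, GENCODE release 29) are shown with both start codons in capitals.
SHMT2 leader: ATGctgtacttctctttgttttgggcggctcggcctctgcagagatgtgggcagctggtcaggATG

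Transcripts whose annotated start is the second codon were estimated at 28.7%, 28.8% and 27.2% of SHMT2 counts in the ERBB2-high, RARRES2-high and FOLR1-high lines. Most of that rests on reads shared between transcripts. The most used of these transcripts, ENST00000414700, had 1, 11 and 10 whole counts, against 98, 99 and 154 for ENST00000328923, which begins at the first codon.

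MTHFD1 (chromosome 14), the cytosolic enzyme with 3 activities, stood at 39.8 CPM (33.4 to 47.0) in the ERBB2-high line, 49.4 CPM (42.2 to 57.5) in the RARRES2-high line and 55.1 CPM (48.5 to 62.4) in the FOLR1-high line. Neighbours overlap, and the outer pair is just apart. Within the FOLR1-high line it was 38.3 CPM (28.8 to 49.8) in the CXCL14 state and 66.6 CPM (55.7 to 79.1) in the DEFB1 or CD44 state. Those intervals do not overlap, yet the log2 ratio of -0.67 stayed inside the 2-fold limit, as did all 9 members between the states, where 3.47% of entries passed. The 10 S phase genes summed to 869 and 976 CPM in these states. In the ERBB2-high, RARRES2-high and FOLR1-high lines they summed to 444, 828 and 936 CPM, the order of the MTHFD1 levels. Their part in the MTHFD1 levels was not tested. The main transcript ENST00000216605 held between 83.2% and 85.8% of MTHFD1 counts in the 3 lines.

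MTHFD2 (chromosome 2), the mitochondrial dehydrogenase and cyclohydrolase of the pathway, was lowest in the RARRES2-high line. It stood at 80.5 CPM (71.2 to 90.7) there, 138 CPM (127 to 149) in the FOLR1-high line and 155 CPM (142 to 168) in the ERBB2-high line; the last 2 overlap. The log2 ratio of the RARRES2-high to the ERBB2-high line was -0.86 and that of the FOLR1-high to the RARRES2-high line 0.71, each inside the limit. The latter reached 1.01 once mitochondrial and ribosomal protein genes were left out of the scaling. The amino acid response list, ATF4, a stress factor known to regulate MTHFD2, and 9 further genes such as ASNS and TRIB3, summed to 1510 CPM in the ERBB2-high line, 363 CPM in the RARRES2-high line and 662 CPM in the FOLR1-high line, of which ATF4 itself gave 451, 137 and 280 CPM. Against the ERBB2-high line 7 of the 10 were past 2-fold lower in the RARRES2-high line and 7 in the FOLR1-high line, where ASNS, in an entry joined with an overlapping gene, was past it higher; over all entries 10.1% and 12.7% were lower in these pairs. In the FOLR1-high against the RARRES2-high line 3 of the 10 were past it higher and 1 lower, against 6.47% and 12.5% of all entries. The part of this list in the MTHFD2 levels was not tested.

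One MTHFD2 transcript, ENST00000409804, leaves out 3 coding exons, 384 bases or 128 codons with no shift of frame. The junctions after exon 2 are shown because they tell this form from the long one, ENST00000394053; capitals mark the end of exon 2 (GENCODE release 29, plus strand, spliced within chr2:74205870-74211218).
MTHFD2 junction without 3 exons: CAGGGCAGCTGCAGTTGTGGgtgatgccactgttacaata
MTHFD2 junction of the long form: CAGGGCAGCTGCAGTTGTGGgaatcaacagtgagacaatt

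The short form held 21.7% of MTHFD2 counts (18.2 to 25.4%) in the ERBB2-high line, 27.04% (22.0 to 32.9%) in the RARRES2-high line and 17.7% (14.7 to 20.9%) in the FOLR1-high line. The intervals of the RARRES2-high and FOLR1-high lines do not overlap, while no difference reached 20 points. At a marker share of 90% the largest MTHFD2 share difference between these lines was 20.04 points, just past the limit. By whole counts the short form had 53, 27 and 57 counts, shares of 13.9%, 16.8% and 11.6%. The long form held 72.6%, 65.8% and 77.0% of all MTHFD2 counts.

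MTHFD1L (chromosome 6), the mitochondrial formyltetrahydrofolate synthetase, was highest in the RARRES2-high line, where MTHFD2 was lowest. It stood at 25.2 CPM (20.1 to 31.1, 85 counts) there, against 13.9 CPM (10.3 to 18.5, 48 counts) in the ERBB2-high line and 11.1 CPM (8.22 to 14.6, 50 counts) in the FOLR1-high line. The last 2 overlap. A short transcript of 8 exons, ENST00000367307, had 14 whole counts in the RARRES2-high line, 7 in the FOLR1-high line and 1 in the ERBB2-high line; most other MTHFD1L reads were shared among 3 long transcripts.

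Thymidylate and purine synthesis accompany DNA replication, so each line was divided by 10 S phase genes such as PCNA and MCM2, none of them a member. Cells with at least 2 counts of the list after thinning to 2000 counts were set against cells with none. In the ERBB2-high line MTHFD1 stood at 94.1 CPM in 87 S phase list cells (56 counts) and at 26.0 CPM in 392 cells without (54 counts). This was the only member past 2-fold in any line; 3.24% of 6387 entries passed in that line, and 0.571% and 1.99% in the RARRES2-high and FOLR1-high lines. MTHFD1 stood at 51.2 and 45.7 CPM in the RARRES2-high line and at 61.9 and 44.3 CPM in the FOLR1-high line; whether the lines differ in this was not tested. With at least 1 list count as the limit, no member passed. Median depth was 6753 counts in the S phase list cells of the ERBB2-high line and 4914 in those without.

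Other S phase contrasts were smaller among members. MTHFD2 stood at 235 and 141 CPM in the ERBB2-high line and at 159 and 111 CPM in the FOLR1-high line, with intervals apart in each. In the RARRES2-high line it stood at 88.7 and 72.9 CPM, with overlapping intervals. It was inside the limit in every line. FOLR1 in the FOLR1-high line was 560 CPM in S phase list cells and 657 CPM in cells without; it stood at 40.3 and 25.05 CPM in the ERBB2-high line and at 11.01 and 5.83 CPM in the RARRES2-high line, with overlapping intervals in the last 2. TYMS, the synthase of thymidylate production, stood at 207 and 30.3 CPM in the ERBB2-high line, 101 and 52.5 CPM in the RARRES2-high line and 125 and 39.4 CPM in the FOLR1-high line. It was past 2-fold in the first and the last of these.

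Of 34 other folate and one-carbon genes, 24 had enough counts to compare. In the FOLR1-high against the ERBB2-high line 4 were past 2-fold higher and 2 lower, and the same numbers held against the RARRES2-high line. In the RARRES2-high against the ERBB2-high line 2 were higher and 1 lower. Over all entries 4.99%, 6.47% and 7.69% were higher and 12.7%, 12.5% and 10.1% lower in these pairs. The median log2 ratio of the list was 0.15, 0.16 and 0.00, against -0.29, -0.12 and -0.15 over all entries. Scaling without mitochondrial and ribosomal protein genes put 9.11%, 10.7% and 8.998% of all entries past 2-fold higher and 9.18%, 10.4% and 10.5% lower, and median of ratios 8.28%, 8.62% and 8.88% higher and 7.84%, 10.1% and 7.82% lower. Under each of these scalings 6 list genes were higher and 1 lower in the FOLR1-high line against either other line, and the median of the list was at least 0.34 in both pairs.

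Serine synthesis, a route of 3 enzymes, feeds both SHMT enzymes. PHGDH, the first enzyme of the route, stood at 42.4 CPM in the ERBB2-high line, 106 CPM in the RARRES2-high line and 213 CPM in the FOLR1-high line. PSAT1, the next enzyme, stood at 236, 58.3 and 359 CPM in the same order. PSPH, which completes the route, stood at 11.04, 10.7 and 15.7 CPM, inside the limit in each pair. For PHGDH the log2 ratio of the FOLR1-high to the RARRES2-high line was 0.95, inside the limit. It was past it at 1.25 when scaled without mitochondrial and ribosomal protein genes and at 1.17 by median of ratios. Between the states PHGDH was the 1 list gene of 24 past the limit, which 3.47% of entries passed, at 311 CPM in the CXCL14 state and 130 CPM in the DEFB1 or CD44 state. PSAT1 was nearly level there, at 369 and 357 CPM.

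Glycine cleavage and the methionine cycle held the remaining higher genes of the FOLR1-high line. CBS, which draws homocysteine out of the cycle, stood at 19.2, 15.7 and 74.4 CPM in the ERBB2-high, RARRES2-high and FOLR1-high lines. Of the glycine cleavage genes, GLDC stood at 4.36, 4.74 and 22.6 CPM, and an entry that joins GCSH with overlapping genes at 83.4, 82.9 and 188 CPM. DLD, a subunit shared with other enzyme complexes, stood at 30.5, 74.9 and 57.6 CPM. Its log2 ratio of the FOLR1-high to the ERBB2-high line was 0.74, inside the limit. The ratio was past it at 1.08 when scaled without mitochondrial and ribosomal protein genes and at 1.05 by median of ratios.

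The 2 list genes past 2-fold lower in the FOLR1-high line against each other line were ABCC1 and MTHFS. ABCC1, a pump that also exports folates, stood at 36.6 and 37.0 CPM in the ERBB2-high and RARRES2-high lines and at 12.8 CPM in the FOLR1-high line, where FPGS was lowest too. Its log2 ratios of -1.03 and -1.04 became -0.85 and -0.91 without mitochondrial and ribosomal protein genes in the scaling and -0.77 and -0.90 by median of ratios, inside the limit. An entry that joins MTHFS with the overlapping ST20 stood at 96.7, 86.1 and 30.1 CPM. All 6 purine synthesis entries were inside the limit in each pair of lines. Scaled without mitochondrial and ribosomal protein genes or by median of ratios, PAICS was past it against the ERBB2-high line (log2 ratios of 1.04 under each) and the entry that joins ADSL with overlapping genes against the RARRES2-high line (1.17 and 1.08), both higher in the FOLR1-high line.

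**Figure D5:**
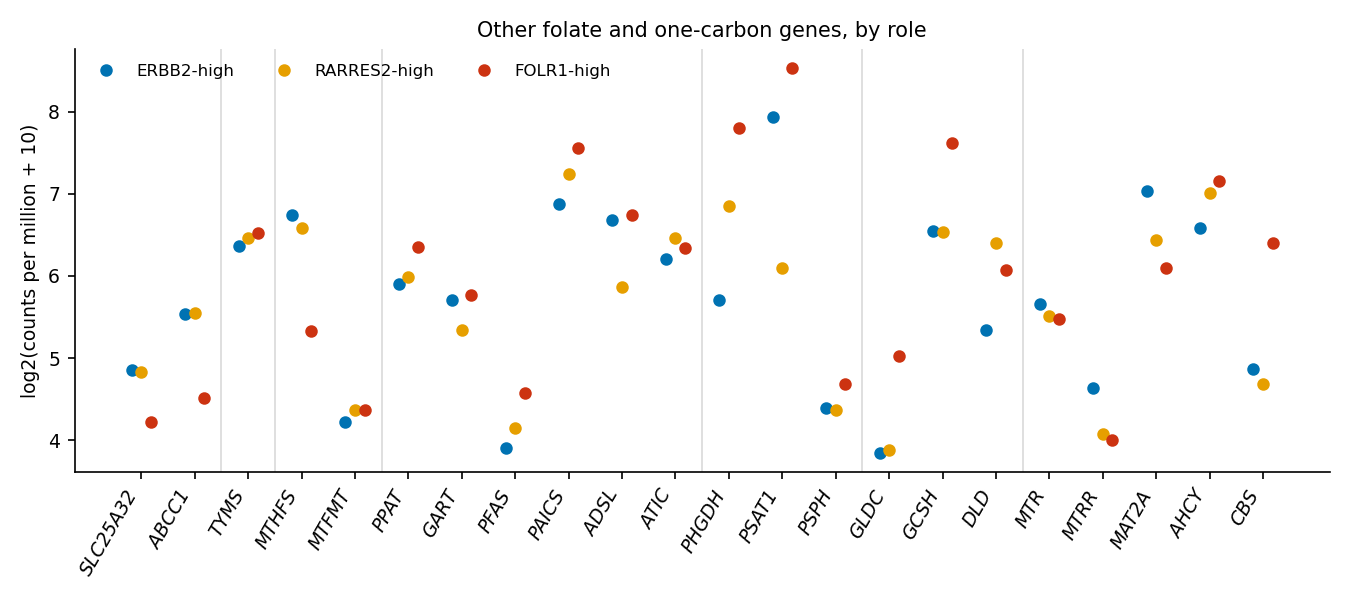
Level, as log2(CPM + 10), of other folate and one-carbon genes with enough counts in the 3 lines, ordered by role from transport (left) to the methionine cycle (right); grey lines divide the roles. PHGDH, PSAT1, GCSH and CBS are highest in the FOLR1-high line, and MTHFS and ABCC1 are lowest there.

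The entries nearest to FOLR1 and FPGS in pattern were taken over 4 groups, the ERBB2-high line, the RARRES2-high line and the 2 states. Likeness was the mean absolute difference of centred log2(CPM + 10), so smaller is closer; FOLR1 sets the FOLR1-high line, so its pattern and its neighbours are a description only. SCIN was nearest to FOLR1 at 0.07, with 11.3, 0.888, 281 and 302 CPM in the ERBB2-high line, the RARRES2-high line, the CXCL14 state and the DEFB1 or CD44 state. SEMA3D and AC007325.2 followed at 0.47 and 0.48. FPGS was the other member with the widest range, and TIMMDC1 was nearest to it at 0.03, with 110, 100.1, 42.5 and 41.7 CPM. The entry of ZFP91 with its overlapping genes followed at 0.04.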

How the data were processed

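The authors deposited estimated counts per transcript and cell barcode, not normalised; the series' design text names the Isosceles package. Per the submitters' processing notes, Cell Ranger 6.0.1 and GRCh38 were used, with no role stated. Not given in the sources used here: aligner, annotation release, use of molecular identifiers. Estimated counts were summed per gene entry, where they were whole. Of 32 member transcripts, 32 had the ends given by GENCODE release 29, which supplied exons and sequences. CPM intervals are exact Poisson and share intervals exact Clopper-Pearson on rounded counts, at 95%. Gene entries needed 50 counts over the 3 lines; a zero count was read against a limit of 3 counts. Scrublet (scanpy 1.11.5, expected rate 0.02) called 77 doublets, which were kept except in 1 alternative. Intervals were checked only on counts simulated under the Poisson and binomial models that they assume. That check held no spread between cells and no counts split between transcripts, so it cannot show coverage in these data. Members, lists and line rule were chosen with earlier results of these data known. All 9 members were named, and list genes were named by the 2 highest and 2 lowest ratios in each pair of lines; GLDC, GCSH, EPCAM, KRT8, PSPH, PAICS, ADSL, TYMS and SLC46A1 were added after their values were seen. Some genes that this rule or the likeness measure would name are not reported here. FOLR1 subsets were likewise defined after seeing the data.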

Additional observations from a re-analysis of the deposited data

How the results depend on the processing

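Of 24 comparisons between lines (8 members without FOLR1 in 3 pairs), 1 was past 2-fold. The number was 3 at a marker share of 90%, which reduced the RARRES2-high line from 473 to 285 cells, 2 with at least 3 marker counts, 2 when scaled without mitochondrial and ribosomal protein genes, and 0 with median of ratios size factors. It was 6 at a 1.5-fold limit, 0 at a 3-fold limit and 4 with 1 CPM added. The 2 transcript share differences between lines became 1 with at least 3 marker counts, 0 with cells of a single count left out (fewer genes compared), 4 at 10 points and 1 at 30 points. At a marker share of 90% FOLR1 was not compared. There SHMT1 passed against the ERBB2-high line (20.7 points) and MTHFD2 against the RARRES2-high line (20.04 points). The downstream FOLR1 share of the CXCL14 state was 35.2% in cells with at least 3 CXCL14 counts; over every other alternative run it was 36.8% to 38.9%, and 63.9% to 65.0% in the DEFB1 or CD44 state. The share of cells with FOLR1 in the ERBB2-high, RARRES2-high and FOLR1-high lines was 12.7%, 3.59% and 85.4% without thinning and 2.93%, 0.634% and 40.7% at 1000 counts. With at least 1 S phase list count, 0 members passed in place of 1. Otherwise the cause of these shifts was not tested. No paired analysis was possible because each platform has 1 library and no result comes from a test. Depth limits SLC19A1, MTHFD1L and the FOLR1 starts of the RARRES2-high line.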
